A study of Mus musculus with 6 samples.

Results

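The 10 genes whose products hydroxylate, fold and trim procollagen and are described here are P4ha1, P4ha2, P4hb, Plod1, Plod2, Plod3, Serpinh1, Pcolce, Bmp1 and Adamts2. They were taken by symbol, and all 10 were found among the 45038 genes of the deposited table. The cells came from C57BL/6 mice of 6 to 8 weeks that carried Tie2-Cre and Rosa-LSL-tdTomato, a red reporter that Cre switches on. Because Tie2 is expressed by endothelium and by some blood lineage cells, the reporter alone does not mark a single cell type. In the MI group, the left anterior descending coronary artery was tied off to cause a myocardial infarct, and infarcted tissue was taken 3 weeks later. The Normal group held normal left ventricle, labelled as having had no infarct surgery. Both groups were sorted for tdTomato signal without F4/80, a macrophage surface antigen. Each group held 3 libraries, numbered Ms1535, Ms1537 and Ms1608 in both, and nothing in the labels says whether a shared number marks a shared mouse. The p-values below therefore measure the spread between these libraries, which may be partly technical.

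Collagen chains are made in the endoplasmic reticulum (ER), where prolyl 4-hydroxylase adds the hydroxyl groups that hold the triple helix together at body temperature. Lysyl hydroxylases modify lysines that later take part in cross-links, and the chaperone HSP47, encoded by Serpinh1, binds the folded helix. After secretion, separate proteases cut off the propeptides at the 2 ends, which lets the molecules assemble into fibrils. Activated fibroblasts of a healing infarct are a classic site of this machinery.

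Values are FPKM, fragment numbers divided by transcript length and library total, and levels of different genes are set side by side on that basis. The RNA was amplified by in vitro transcription, and how evenly fragments covered the transcripts was not tested. Comparisons between genes, shares and ratios included, carry that limit. Differences and their standard errors (SE) are on the log2(FPKM + 1) scale, MI minus Normal, from limma with Benjamini-Hochberg adjustment over the 10168 genes that reached 1 FPKM in 3 or more libraries. All 10 genes passed that filter. With all 6 libraries, none of the 10 passed an adjusted p of 0.05 by limma, and 1 gene of all those tested did (0.00983%). At an unadjusted limma p under 0.05, 3 of the 10 were higher in MI and 0 lower, where 16.1% of all tested genes were higher at that level. The median difference over all tested genes was 0.78 and not 0, so each gene's position relative to that median is given as well. Rescaling the libraries moved this median to -0.03 by median ratios, 0.20 by upper quartiles and -0.05 by quantile normalization.

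One library stood apart from the other 5. Normal Ms1608 correlated with them at r of 0.544 to 0.685 on the log2 scale across genes, and the other pairs reached up to 0.917. In that library 8 of the 10 genes had their lowest value. The share of all tested genes that were lowest there was not counted, so this count is not read as particular to the 10. Its endothelial markers summed to 37.0 FPKM, against 863 and 1249 FPKM in the other 2 Normal libraries, and its leukocyte markers to 3755 FPKM against 267 and 397 FPKM. In MI, the leukocyte markers summed to 2200, 2301 and 1967 FPKM. The name Normal Ms1608 follows its label, and these marker levels put that label in doubt without settling it, so differences that rest on this library are also given without it. The 10 fibroblast markers summed to 4566, 5133 and 1136 FPKM in MI, compared with 887, 1094 and 129 FPKM in Normal (Ms1535, Ms1537 and Ms1608 in each case, the order used throughout). All 10 of these markers, of which Col1a1 is also a procollagen chain, had a difference above 0. So did 8 of 8 leukocyte and 8 of 10 endothelial markers, on a scale where the median tested gene was at 0.78. Above that median lay 10 of 10 fibroblast, 8 of 8 leukocyte and 3 of 10 endothelial markers. Fap, a fibroblast marker, was listed at 0 in Normal Ms1608. The fibroblast marker sum was lowest in Normal Ms1608. Summed Col1a1, Col1a2 and Col3a1, by contrast, stood at 81.9 FPKM there, above 55.1 and 54.4 FPKM in Normal Ms1535 and Normal Ms1537. The part of these markers in the results was not tested. In sorted bulk samples, more cells of a type and more RNA per cell cannot be told apart.

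The promoters of the pair of prolyl 4-hydroxylase alpha subunits are shown because the balance between these genes separated the groups, and that of Adamts2 because it had the largest difference of the 10. They are RefSeq sequences of 300 bases around the annotated start (GRCm38.p6), and capitals mark ACGTG or GCGTG, the core letters of hypoxia response elements, on either strand. The P4ha1 window is chr10:59323046-59323345, the P4ha2 window chr11:54100674-54100973 and the Adamts2 window chr11:50601835-50602134, all on the plus strand.
P4ha1: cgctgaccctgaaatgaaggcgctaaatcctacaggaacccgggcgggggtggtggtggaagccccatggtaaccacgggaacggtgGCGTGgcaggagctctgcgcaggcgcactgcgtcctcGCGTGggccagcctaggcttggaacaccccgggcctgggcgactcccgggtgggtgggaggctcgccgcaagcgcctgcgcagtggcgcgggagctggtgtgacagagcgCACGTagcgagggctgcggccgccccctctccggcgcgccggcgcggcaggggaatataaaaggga
P4ha2: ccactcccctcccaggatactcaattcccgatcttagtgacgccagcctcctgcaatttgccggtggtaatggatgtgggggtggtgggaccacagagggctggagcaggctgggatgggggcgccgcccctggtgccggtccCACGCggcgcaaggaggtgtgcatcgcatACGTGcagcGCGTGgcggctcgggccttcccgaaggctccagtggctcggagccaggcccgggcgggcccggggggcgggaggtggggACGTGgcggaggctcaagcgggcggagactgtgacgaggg
Adamts2: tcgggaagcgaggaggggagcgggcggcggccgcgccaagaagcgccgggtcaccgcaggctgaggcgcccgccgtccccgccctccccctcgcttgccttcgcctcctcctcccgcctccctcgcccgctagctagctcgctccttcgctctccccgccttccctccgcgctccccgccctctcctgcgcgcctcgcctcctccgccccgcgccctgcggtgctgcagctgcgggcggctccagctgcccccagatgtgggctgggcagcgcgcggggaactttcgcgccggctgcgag
Both alpha subunit promoters held these letters: P4ha1 had ACGTG 1 time and GCGTG 2 times, and P4ha2 had each 2 times. No match was found in the Adamts2 window. Of the 8 members with a promoter in the table, 5 held ACGTG, 6 held GCGTG and 7 held at least one of them; Plod2 and Bmp1 had no entry. Among all 32851 promoters of the table, 19.6% held ACGTG, 32.4% held GCGTG and 43.8% held either. The windows were rich in G and C, at 70.3% for both P4ha1 and P4ha2 and 77.3% for Adamts2. A match is a description of the letters, and binding was not measured.

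The alpha subunits of prolyl 4-hydroxylase carry its catalytic site and pair with the beta subunit P4hb. P4ha1 (ENSMUSG00000019916.11, chr10:59323296-59373304, plus strand) was at 6.40, 14.3 and 3.86 FPKM in the MI libraries and at 1.74, 1.44 and 0.644 FPKM in the Normal ones. All 3 MI values lay above all 3 Normal values. The means were 8.18 ± 5.44 and 1.28 ± 0.567 FPKM (SD, n = 3 each), a ratio of 6.42. On the log2 scale the limma difference was 1.88 (SE 0.666, adjusted p = 0.252), or 1.10 above the median of all tested genes. Without Normal Ms1608 it was 1.66, or 0.83 above the median gene of that fit.

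P4ha2 (ENSMUSG00000018906.11, chr11:54100095-54131665, plus strand), the other alpha subunit, did not show that separation. Its values were 3.66, 5.25 and 2.37 FPKM in MI, compared with 4.30, 3.91 and 2.42 FPKM in Normal. The groups overlapped over nearly their whole range, with means of 3.76 ± 1.44 and 3.54 ± 0.990 FPKM (SD, n = 3 each). The limma difference was 0.05 (SE 0.621, adjusted p = 0.978), which lay -0.74 from the median of all genes and was below 0 under each of the 3 rescalings.

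The balance between the alpha subunits can be read within each library, where it does not depend on how libraries are scaled. P4ha1 made up 63.6%, 73.1% and 61.9% of summed P4ha1 and P4ha2 FPKM in MI, compared with 28.8%, 27.0% and 21.0% in Normal. P4ha1 was thus the more abundant of the pair in every MI library, and P4ha2 in every Normal library, Normal Ms1608 included. The mean shares were 66.2 ± 6.04% and 25.6 ± 4.08% (SD, n = 3 each), a difference of 40.6 percentage points. A two-sided exact permutation test gave p = 0.1, the smallest that 3 against 3 libraries allow, and 0.2 after adjustment over the 4 family shares tested. Leaving out any single library left the difference between 37.2 and 42.8 points. The plot of family shares shows this exchange beside that of the lysyl hydroxylases. The remaining alpha subunit gene, P4ha3, did not pass the filter and was at 0.677, 1.27 and 0 FPKM in MI, compared with 0, 0 and 0.0367 FPKM in Normal.

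**Figure D1:**
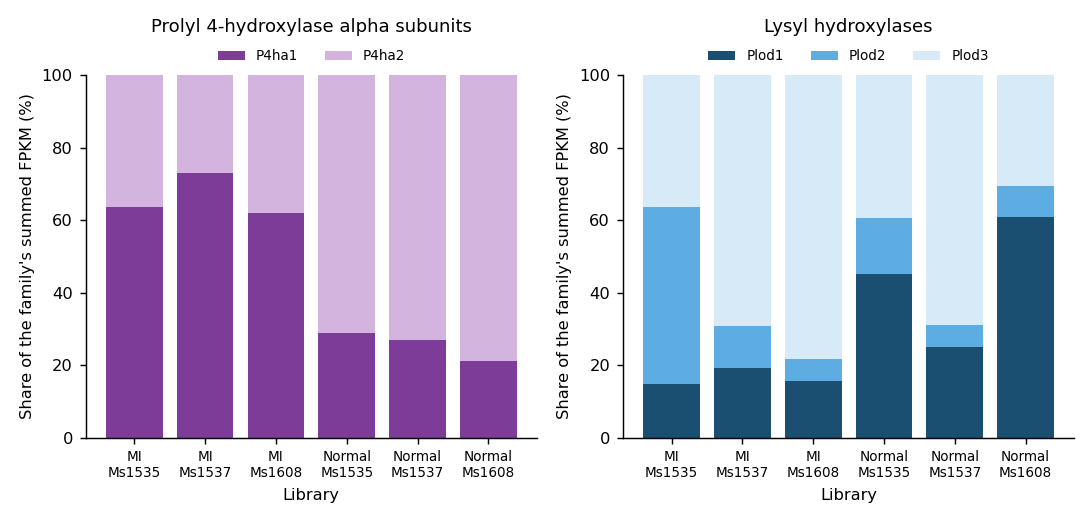
Stacked bars of each gene's share (%) of summed FPKM within its family, 1 bar per library, for the alpha subunits of prolyl 4-hydroxylase (left) and the lysyl hydroxylases (right). P4ha1 takes 61.9% to 73.1% in the MI libraries and 21.0% to 28.8% in the Normal libraries, and Plod1 takes 14.9% to 19.2% in MI and 24.9% to 61.0% in Normal.

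P4hb (ENSMUSG00000025130.8, chr11:120560298-120573253, minus strand) encodes protein disulfide isomerase, which serves as the beta subunit of the enzyme and also forms disulfide bonds in many other secreted proteins. It was the most abundant of the 10 genes in every library, at 744, 729 and 369 FPKM in MI, compared with 337, 181 and 409 FPKM in Normal. MI Ms1535 and MI Ms1537 lay above all Normal libraries, while MI Ms1608 lay below Normal Ms1608. Means were 614 ± 212 and 309 ± 117 FPKM (SD, n = 3 each), and the limma difference was 1.00 (SE 0.594, adjusted p = 0.399). Relative to the median gene the difference was 0.22, and under median-ratio scaling the sign turned, to -0.095. The difference was 0.65 without Normal Ms1537. Without Normal Ms1608 it was 1.24, or 0.41 above the median gene of that fit. P4hb stood between the 97.8th and 98.8th percentile of tested genes in all 6 libraries. Its FPKM exceeded that of the alpha subunits together by 73.9, 37.3 and 59.3 times in MI and 55.9, 33.8 and 134 times in Normal, with no separation of the groups.

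Among the lysyl hydroxylases, Plod1 (ENSMUSG00000019055.12, chr4:147909753-147936767, minus strand) acts mainly on lysines of the triple helix. Its levels were 2.73, 4.99 and 2.92 FPKM in MI, compared with 6.90, 2.80 and 0.731 FPKM in Normal. Normal Ms1535 held the highest value and Normal Ms1608 the lowest, so the MI values lay inside the Normal range. The means were 3.55 ± 1.25 and 3.47 ± 3.14 FPKM (SD, n = 3 each). The limma difference was 0.25 (SE 0.706, adjusted p = 0.876), or -0.53 relative to the median gene. This difference was below 0 under each of the 3 rescalings and at -0.30 without Normal Ms1608.

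Plod2 (ENSMUSG00000032374.11, chr9:92542223-92608428, plus strand) acts on lysines of the telopeptides, the short ends that form the cross-links of stiff tissue. Its levels were 8.94, 3.00 and 1.18 FPKM in MI, compared with 2.35, 0.701 and 0.0997 FPKM in Normal. Within each number the MI library was higher, but Normal Ms1535 lay above MI Ms1608. The means were 4.38 ± 4.06 and 1.05 ± 1.17 FPKM (SD, n = 3 each). The limma difference was 1.26 (SE 0.683, adjusted p = 0.360), or 0.48 relative to the median gene. MI Ms1535 was well above the other MI libraries, and without it the difference was 0.68, or -0.06 relative to the median gene. Without Normal Ms1608 the difference was 0.89, or 0.06 relative to the median gene. Under the 3 rescalings it was 0.24 to 0.70. Of the 5392 exon bases of Plod2, 346 overlap Gm38391 on the opposite strand, which reached 1.55 FPKM. As the strand setting of the counting was not given, the low Plod2 values are uncertain by what Gm38391 reads could add.

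Plod3 (ENSMUSG00000004846.7, chr5:136987019-136996648, plus strand) encodes a lysyl hydroxylase that also attaches sugars to hydroxylysine. It was at 6.64, 18.0 and 14.8 FPKM in MI, compared with 5.99, 7.73 and 0.368 FPKM in Normal. Normal Ms1537 lay above MI Ms1535, and Normal Ms1608 lay far below the rest. The limma difference was 1.59 (SE 0.862, adjusted p = 0.360), or 0.81 relative to the median gene. It was 0.76 without Normal Ms1608 (-0.08 relative to the median gene) and 0.37 to 0.85 under the 3 rescalings. Of its 4519 exon bases, 529 overlap the antisense gene Znhit1, which reached 8.85 FPKM. The strand setting of the counting was not given in the sources used here, so the Plod3 level is uncertain by what Znhit1 reads could add.

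As shares of the 3 lysyl hydroxylases, Plod1 made up 14.9%, 19.2% and 15.5% in MI and 45.3%, 24.9% and 61.0% in Normal. The groups did not overlap, and their means were 16.5 ± 2.32% and 43.7 ± 18.1% (SD, n = 3 each). The exact permutation p was 0.1, the smallest possible, and 0.2 adjusted. The difference of -27.2 points became -18.6 points without Normal Ms1608. No such separation was seen for the Plod2 share, at 48.8%, 11.5% and 6.25% in MI and 15.4%, 6.24% and 8.32% in Normal (exact permutation p = 0.6, adjusted 0.6). The Plod3 share also overlapped, at 36.3%, 69.3% and 78.3% in MI and 39.3%, 68.9% and 30.7% in Normal (exact permutation p = 0.4, adjusted 0.533). Plod2 had the largest share of the 3 in MI Ms1535, and Plod3 had it in MI Ms1537 and MI Ms1608.

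Serpinh1 (ENSMUSG00000070436.8, chr7:99345376-99353239, minus strand) encodes HSP47, a chaperone dedicated to procollagen. Levels were 26.3, 42.3 and 6.73 FPKM in MI, compared with 8.70, 8.91 and 0.690 FPKM in Normal. MI Ms1535 and MI Ms1537 lay above all Normal libraries, and MI Ms1608 lay between Normal Ms1608 and the other 2. The means were 25.1 ± 17.8 and 6.10 ± 4.69 FPKM (SD, n = 3 each), a ratio of 4.11. The limma difference was 1.94 (SE 0.948, adjusted p = 0.323), or 1.15 above the median gene. Without Normal Ms1608 it was 1.09, or 0.26 above the median gene of that fit.

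Bmp1 (ENSMUSG00000022098.9, chr14:70474558-70520234, minus strand) encodes the protease that removes the C-terminal propeptide of fibrillar procollagens. It was at 9.53, 10.4 and 1.64 FPKM in MI, compared with 0.978, 1.06 and 0.0595 FPKM in Normal. The lowest MI value was above the highest Normal value. Means of 7.18 ± 4.81 and 0.698 ± 0.554 FPKM (SD, n = 3 each) gave a ratio of 10.3, and 7.06 against the 2 Normal libraries other than Ms1608. By limma the difference was 2.07 (SE 0.699, adjusted p = 0.252), or 1.28 above the median gene.

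Adamts2 (ENSMUSG00000036545.8, chr11:50602084-50807573, plus strand) encodes the protease that removes the N-terminal propeptide. It was at 26.0, 32.1 and 5.74 FPKM in MI, compared with 2.43, 1.86 and 0.161 FPKM in Normal, again with no overlap. Its means were 21.3 ± 13.8 and 1.49 ± 1.18 FPKM (SD, n = 3 each), a ratio of 14.3, and 9.91 against the other 2 Normal libraries. The difference of 3.01 (SE 0.830, adjusted p = 0.246 by limma) was the largest of the 10 genes and lay 2.23 above the median gene. Adamts2 FPKM was 2.73, 3.09 and 3.50 times that of Bmp1 in MI and 2.49, 1.77 and 2.71 times in Normal. All MI ratios lay above all Normal ones, by little at the nearest pair, 2.73 and 2.71. This ratio was not tested.

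Pcolce (ENSMUSG00000029718.11, chr5:137605103-137613784, minus strand) encodes a secreted enhancer that raises the activity of Bmp1 on procollagen. It was the second most abundant of the 10 genes in every library but Normal Ms1608, at 149, 228 and 75.6 FPKM in MI, compared with 78.4, 51.4 and 0.980 FPKM in Normal. Normal Ms1535 lay just above MI Ms1608, and Normal Ms1608 stood far below all others. The means were 151 ± 76.0 and 43.6 ± 39.3 FPKM (SD, n = 3 each). The limma difference was 2.77 (SE 1.25, adjusted p = 0.305), or 1.99 above the median gene. Without Normal Ms1608 it was 1.10, or 0.27 above the median gene of that fit. Pcolce exceeded Bmp1 by 15.7, 22.0 and 46.1 times in MI and by 80.2, 48.6 and 16.5 times in Normal, so the enhancer and its protease did not keep a fixed proportion.

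**Figure D2:**
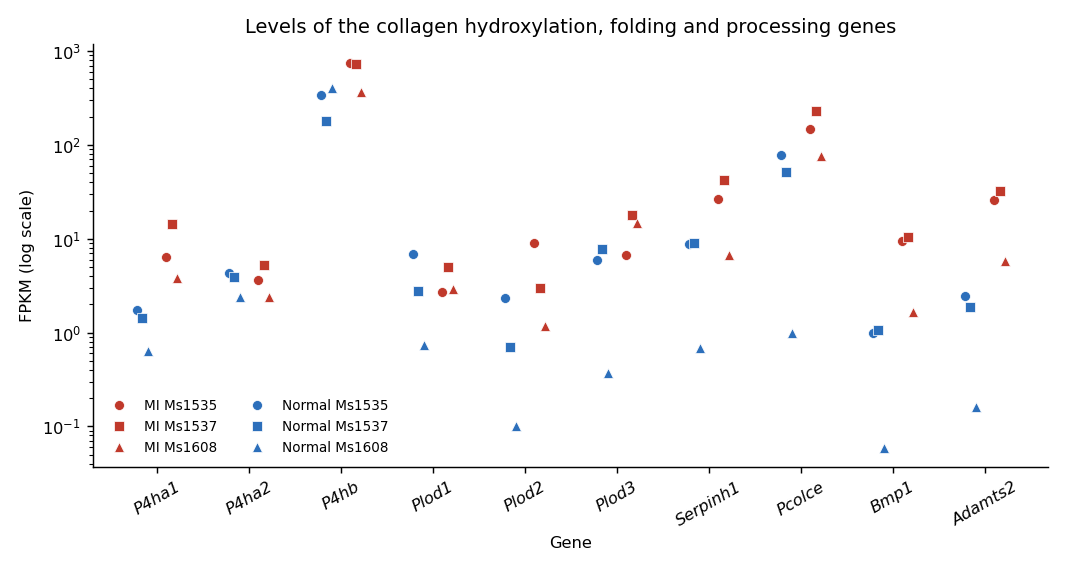
FPKM of the 10 genes (log axis) in each of the 6 libraries, MI in red and Normal in blue, with the marker shape giving the library number. P4ha1, Bmp1 and Adamts2 have all MI points above all Normal points, P4ha2 and Plod1 overlap between the groups, and Normal Ms1608 is lowest for 8 genes. The matching count over all tested genes was not made.

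Across the 10 genes, 3 (P4ha1, Bmp1 and Adamts2) had groups that did not overlap, all higher in MI. The same was true of 25% of all tested genes, so a count of 3 in 10 is near that background. None lay wholly lower in MI, as 36 of the tested genes did. All 10 differences were above 0 on the deposited scale, with 2 that turned under rescaling by any of the 3 methods (P4ha2 and Plod1) and a further one, P4hb, that turned under median ratios only. Under the 3 rescalings the other differences were smaller as well: 0.80 to 1.27 for P4ha1, 0.81 to 1.18 for Serpinh1, 1.10 to 1.46 for Bmp1, 1.76 to 1.98 for Pcolce and 2.03 to 2.32 for Adamts2. Relative to the median gene, 8 of the 10 lay above it. The median of the 10 was 1.74, or 0.95 above the median of all tested genes. Without Normal Ms1608 these became 1.10 and 0.26.

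Leaving out the Ms1608 libraries changed the calls. Without Normal Ms1608, limma called 4.45% of all tested genes higher in MI, and none of the 10; 4 of the 10 then had an unadjusted p under 0.05 and were higher, where 30.8% of all tested genes were, so this count is near the background. The nearest was Adamts2, with a difference of 2.54 and an adjusted p of 0.0716. Without both Ms1608 libraries, a choice made after seeing the data that left 2 libraries a group, limma called 14% of all tested genes higher. Under that choice 4 of the 10 were called higher in MI: Adamts2 by 3.25 (adjusted p = 0.029), Bmp1 by 2.44 (0.0325), Serpinh1 by 1.81 (0.0450) and P4hb by 1.57 (0.0489). P4ha1, at 2.04, and Pcolce, at 1.52, just missed the limma threshold (adjusted p = 0.0509 and 0.0541). In that fit the fibroblast markers summed to 887 and 1094 FPKM in Normal against 4566 and 5133 FPKM in MI, with 5 of 10 called higher and a median difference of 2.26. The leukocyte markers summed to 267 and 397 FPKM in Normal against 2200 and 2301 FPKM in MI, with 8 of 8 called higher and a median of 2.87. The part of either in the calls was not tested.

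**Figure D3:**
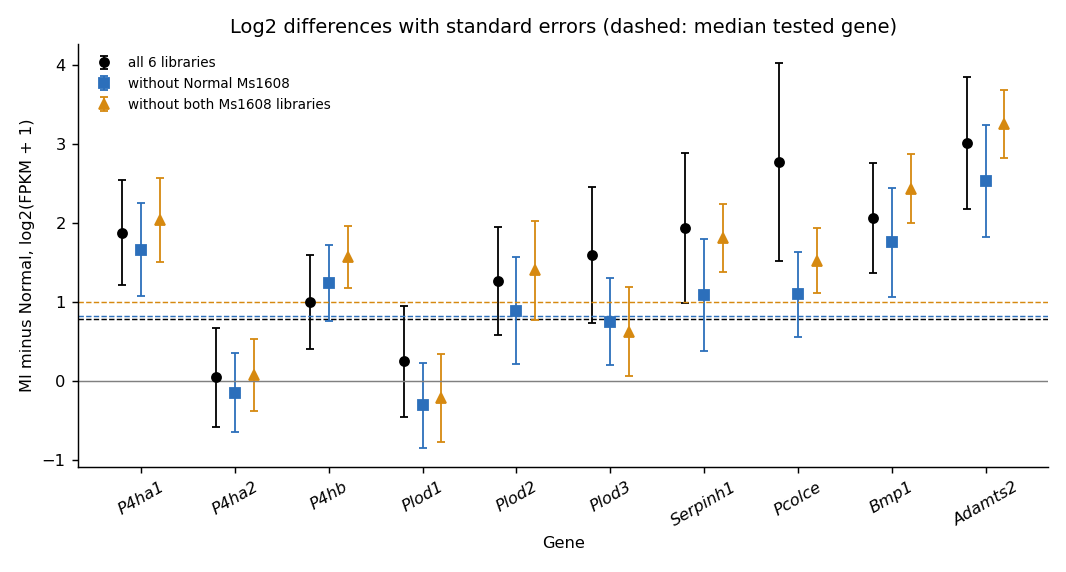
Difference of each gene between MI and Normal on the log2(FPKM + 1) scale with its standard error, from all 6 libraries (black), without Normal Ms1608 (blue) and without both Ms1608 libraries (orange). Dashed lines give the median of all tested genes in the same fit, 0.78 with all 6 libraries; Adamts2 stays at 2.54 to 3.25, and Pcolce goes from 2.77 to 1.10 without Normal Ms1608.

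Among the procollagen chains on which these enzymes act, the 11 tested had a median difference of 1.54, below the 1.74 of the 10 genes, and the fibrillar chains lay at the upper end. The limma differences of the type I and type III procollagen chains were 3.16 for Col1a1, 3.17 for Col1a2 and 3.40 for Col3a1 (adjusted p = 0.246 to 0.247), each larger than that of any of the 10 genes, though within 1 SE of the 3.01 of Adamts2. The 3 chains together summed to 1754, 1262 and 111 FPKM in MI, compared with 55.1, 54.4 and 81.9 FPKM in Normal. MI Ms1608 was thus near the Normal libraries in chain level, and far below the other MI libraries. In Normal Ms1608 the chains did not move together. Col1a2 at 37.9 FPKM and Col3a1 at 40.9 FPKM were higher there than in the other 2 Normal libraries, while Col1a1 at 3.10 FPKM, Col5a1 at 0.0937 FPKM and Col5a2 at 0.140 FPKM had their lowest values there, as did Adamts2, Bmp1, Serpinh1 and Pcolce.

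Set against 100 FPKM of summed Col1a1, Col1a2 and Col3a1, all 10 genes were lower in MI Ms1535 and MI Ms1537 than in Normal Ms1535 and Normal Ms1537. The chain sum was 1754 and 1262 FPKM in those MI libraries and 55.1 and 54.4 FPKM in those Normal ones. Any gene that rose less than the chains falls on this scale, so the count follows largely from the denominator. The share of all tested genes that did so was not computed. Serpinh1 stood at 1.497, 3.35 and 6.08 per 100 FPKM of chains in MI and at 15.8, 16.4 and 0.843 in Normal. P4ha2, whose own FPKM overlapped between the groups, stood at 0.209, 0.416 and 2.14 in MI and 2.96 to 7.80 in Normal, with no overlap on this scale. By contrast, Adamts2 stood at 1.48, 2.54 and 5.19 in MI and 4.41, 3.42 and 0.197 in Normal, and Bmp1 at 0.543, 0.821 and 1.48 in MI and 1.77, 1.94 and 0.0727 in Normal. For Serpinh1, Adamts2, Bmp1, Plod2 and Pcolce, Normal Ms1608 was the lowest of all 6 libraries, so the order of the groups depends on it. These ratios were chosen after values were seen and were given no test.

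**Figure D4:**
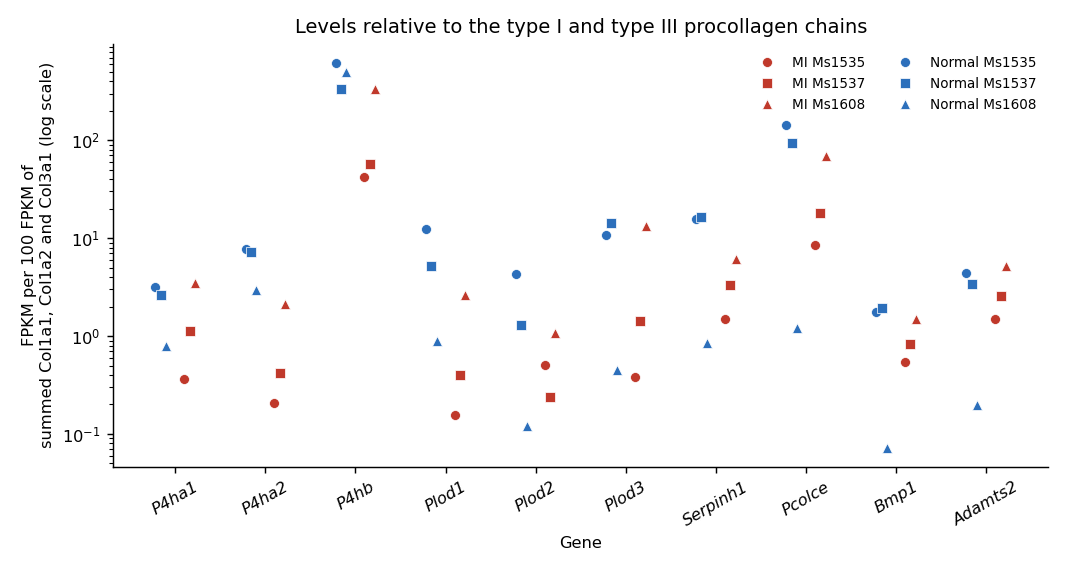
FPKM of each of the 10 genes per 100 FPKM of summed Col1a1, Col1a2 and Col3a1 (log axis), 1 point per library, MI in red and Normal in blue. P4ha2 is at 0.209 to 2.14 in MI and 2.96 to 7.80 in Normal. Serpinh1, Bmp1, Adamts2, Plod2 and Pcolce have their lowest point in Normal Ms1608.

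Other genes of the same pathway were counted from lists of related steps. Of 26 such genes, 19 were tested, and none was called by limma with all 6 libraries. At an unadjusted limma p under 0.05, 5 of the 19 were higher in MI and 0 lower, where 16.1% of all tested genes were higher. Their median difference was 1.32, with 17 of 19 above 0 and 13 of 19 above the median of all genes. The 5 tested members of the prolyl 3-hydroxylation complex, which modifies single prolines and acts as a chaperone, had a median of 1.36. Ppib, its cyclophilin, was at 94.6, 156 and 44.6 FPKM in MI, compared with 47.4, 39.9 and 86.1 FPKM in Normal, and overlapped between groups. Crtap, the helper subunit, was at 16.6, 42.3 and 18.7 FPKM in MI, compared with 10.5, 17.5 and 0.120 FPKM in Normal, while P3h3 was highest in MI Ms1537 at 47.5 FPKM and next in Normal Ms1608 at 31.2 FPKM.

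The 4 folding cofactors had a median of 1.67, and none of the 4 had an unadjusted p under 0.05. Fkbp7, an ER prolyl isomerase, was at 57.8, 107 and 10.2 FPKM in MI, compared with 17.1, 25.0 and 0.776 FPKM in Normal. Fkbp14, another of that family, was at 21.6, 9.27 and 0.931 FPKM in MI, compared with 2.31, 1.01 and 0.0106 FPKM in Normal. In both, MI Ms1608 lay below Normal Ms1535 and Normal Ms1537.

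The genes for export of procollagen from the ER had a median of 0.82 over 5 tested, close to the 0.78 of all genes, and of -0.22 under median-ratio scaling. Mia3, which encodes the cargo receptor TANGO1, was at 49.0, 66.6 and 30.4 FPKM in MI, compared with 14.4, 9.14 and 15.6 FPKM in Normal, with no overlap (difference 1.79, adjusted p = 0.259 by limma). Sec24d, a coat protein of the export vesicles, overlapped, with 91.5 FPKM in Normal Ms1608 as its highest value. The 2 hydroxylysine galactosyltransferases, Colgalt1 and Colgalt2, had differences of 0.63 and -0.03. Pepd, a peptidase that frees proline from collagen breakdown products, was at 30.2, 24.7 and 12.8 FPKM in MI, compared with 2.72, 4.75 and 0.532 FPKM in Normal. The groups did not overlap, and its difference of 2.80 (SE 0.756, adjusted p = 0.246 by limma) was close to that of Adamts2.

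Among other genes for propeptide removal, Pcolce2, a relative of Pcolce, was at 14.7, 34.7 and 4.79 FPKM in MI, compared with 1.95, 8.16 and 0.0999 FPKM in Normal (difference 2.26, adjusted p = 0.294). Furin, which activates the Bmp1 proenzyme, differed by 0.75 (adjusted p = 0.477). The general ER folding genes give the background for P4hb: 8 of 10 were tested, with a median of 1.03 and none called. Hspa5, the main ER chaperone BiP, was at 470, 400 and 425 FPKM in MI, compared with 129, 122 and 628 FPKM in Normal. Like P4hb, Hspa5 was higher in Normal Ms1608 than in the other 2 Normal libraries, and so were Hsp90b1 at 86.5 FPKM and Pdia6 at 152 FPKM. Canx followed, at 25.0, 35.5 and 66.2 FPKM in Normal, as did Hyou1, at 0.673, 0.377 and 2.17 FPKM. Sdf2l1 and Calr were only marginally highest there, Calr at 24.2, 25.6 and 25.8 FPKM. Dnajb11, Pdia4 and Pdia3 did not follow, with Pdia3 at 2.05, 2.46 and 0.0514 FPKM. Hyou1 and Pdia4 did not pass the filter and were not tested. The genes of this list named beyond Hspa5, Hsp90b1 and Pdia6 were picked after their values were seen. Serpinh1 was also lowest in Normal Ms1608. The summed general ER folding genes stood at 1000, 817 and 668 FPKM in MI, compared with 302, 268 and 979 FPKM in Normal. The plot by gene list sets the 10 genes beside these lists.

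**Figure D5:**
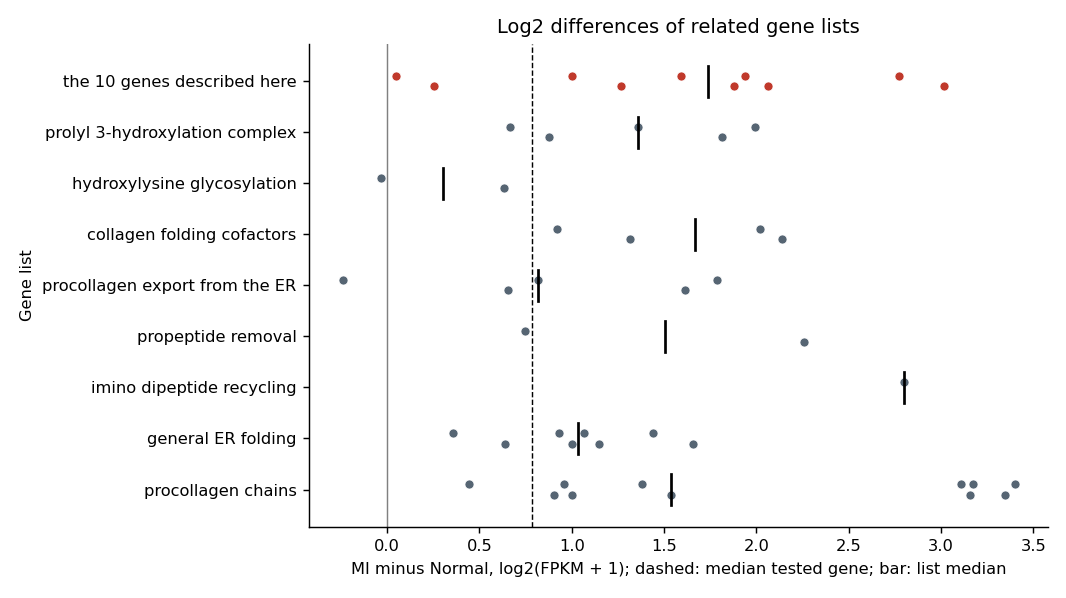
Difference between MI and Normal on the log2(FPKM + 1) scale for each tested gene of the lists named on the vertical axis, with a bar at each list's median and a dashed line at the median of all tested genes, 0.78. The 10 genes have a median of 1.74, the procollagen chains 1.54 and the general ER folding genes 1.03; none of the genes drawn was called.

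The genes whose profile over the 6 libraries was most like that of Serpinh1, by mean absolute difference of centred log2(FPKM + 1) among 8858 genes, were Fbln5 (0.112), Iqck (0.116) and Atraid (0.137). Fbln5 encodes an elastic fibre protein and was at 14.2, 24.6 and 3.39 FPKM in MI, compared with 4.72, 3.44 and 0.0706 FPKM in Normal. Of the other 9 genes described here, Bmp1 was nearest to Serpinh1, at 0.483. The nearest profiles to P4hb were those of Mbd2 (0.0507), Armc5 (0.0751) and Pfkp (0.107). Those nearest to Plod2 were Wdr46 (0.0911), Pomgnt1 (0.143) and Il1r1 (0.148). With 6 libraries, one of which stood apart, such likeness is a description of these samples.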

How the data were processed

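RNA of sorted cells was amplified by in vitro transcription and sequenced as paired ends, per the labels' protocols. The authors deposited 1 table of FPKM values for the 6 libraries, and the submitters' processing notes name STAR 2.4.2a, Cufflinks 2.2.1 and GRCm38 (mm10). For the annotation release, strand setting and handling of multi-mapping reads, the choices are not given in the sources used here. FPKM is not a count, so tests were run on log2(FPKM + 1) in limma 3.58.1 (R 4.3.3), fitting a trend of variance on mean level, group as the only term and two-sided Benjamini-Hochberg adjusted p-values, after dropping genes that did not reach 1 FPKM in 3 or more libraries. The fit was tested on simulated data. Family shares were compared by exact permutation (scipy 1.17.1). Alternatives were pseudocounts of 0.1 and 5, no filter or a mean of 5 FPKM, 3 rescalings, limma with no trend, the replicate number as a block, and each library left out.

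Depth was read from the steps of low FPKM values, which gave 34.1 to 49.1 M fragments per library (M for mega). Of these values, 92.9% to 94.5% lay within 0.1 of a whole number, where even spread would give 20%, and the step was fitted to the same values. The labels state a smaller read number, and this was not reconciled. At this depth 3 fragments correspond to 0.00841 to 0.0387 FPKM, depending on gene and library, and every one of the 10 genes was above this in all 6 libraries, which covers counting error only. The lowest was Bmp1 in Normal Ms1608, at 4.03 times its limit.

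The 10 genes and the gene lists were chosen with earlier results of these data known. From each further list, at most 3 tested genes of highest mean FPKM were to be named, with a mention of Pepd as the only gene of its list; profile neighbours were named for Serpinh1, P4hb and Plod2. Gene positions are from GENCODE on GRCm38, in which 98.6% of the table's identifiers were found, and promoters are from RefSeq on GRCm38.p6.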

Additional observations from a re-analysis of the deposited data

How the results depend on the processing

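Limits of these results lie mainly in the 3 libraries a group and in 2 of them. With all 6 libraries limma called 1 gene, and 1 to 459 when a library was left out, with 459 without Normal Ms1608 and 2 without MI Ms1537; 1469 were called without both Ms1608 libraries. The median difference of the 10 genes, 1.74, was 0.73 under quantile normalization, and 2.24 and 0.99 with pseudocounts of 0.1 and 5. Under median-ratio scaling, upper-quartile scaling and quantile normalization, P4ha2 was at -0.80, -0.58 and -1.10 and Plod1 at -0.54, -0.39 and -1.01, and P4hb was at -0.095 under median-ratio scaling. With a library left out, P4ha2 ranged from -0.17 to 0.27 and Plod1 from -0.30 to 0.79, and Plod1 was at -0.21 without both Ms1608 libraries. The difference of the Plod2 share ranged from -1.10 to 20.2 percentage points, the lowest without MI Ms1535. The cause was not tested. Deviations from the group mean correlated at -0.05, 0.10 and 0.09 between libraries sharing a number, and at -0.115 to 0.104 between the others. With 3 libraries a group, these correlations cannot decide whether a shared number marks a shared mouse. With the replicate block 1 gene was called by limma, none of the 10. In that fit 6 of the 10 were higher at an unadjusted limma p under 0.05, as were 1818 of the 10168 tested genes. P4ha1, Plod2, Plod3, Serpinh1, Pcolce, Bmp1 and Adamts2 were above 0 under every alternative that tested them. A filter on a mean of 5 FPKM kept only 5 of the 10 genes.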

Other observations

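Within the protease family of Adamts2, its relative Adamts14, which also removes N-terminal propeptides, had the opposite pattern in the library that stood apart. Adamts14 was at 0.0616, 0.212 and 0.736 FPKM in the MI libraries, at 0.00919 FPKM in Normal Ms1535, at 0.0172 FPKM in Normal Ms1537 and at 14.9 FPKM in Normal Ms1608, where Adamts2 was at 0.161 FPKM. The third member, Adamts3, was at no more than 0.0694 FPKM in any library. Adamts14 did not pass the filter on low values, so it was not tested, and it was chosen here after its values were seen.

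In Normal Ms1608, some genes of the same pathway lay above both other Normal libraries and others below both. Genes outside the pathway did so too. Cct3 was at 123, 83.8 and 1664 FPKM in Normal, and Cav2 at 77.2, 71.9 and 0.780 FPKM. All genes named here were picked after their values were seen, and the shares over all tested genes were not counted. P3h3 at 31.2 FPKM, Sec24d at 91.5 FPKM and Colgalt1 at 11.3 FPKM were above both other Normal libraries there, whereas Crtap at 0.120 FPKM, Fkbp7 at 0.776 FPKM and Pcolce2 at 0.0999 FPKM were below both. A single library gives no replicate check of this split.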
